A study of Rattus norvegicus with 24 samples.

Results

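The nucleus accumbens (NAc) was profiled in its core and its shell, and the 8 core libraries were compared with the 8 shell libraries of the same 8 male rats, out of 24 libraries in the experiment. The members were chosen by tissue label alone, and each core library was paired with the shell library of the rat that carried the same number in the sample title (1, 2, 3, 4, 11, 13, 15 and 16). All rats were F1 offspring of the inbred lines F344 and BN. Rats 1, 2, 11 and 15 belonged to cross A (F344 father, BN mother) and rats 3, 4, 13 and 16 to cross B (BN father, F344 mother). Per the sample labels, rats 1, 2, 3 and 4 had received nicotine at 0.4 mg/kg daily for 4 days and the others saline. The methods section on self-administration does not describe these injections, so the split by injection rests on the labels alone. All 8 then received intravenous nicotine from day 7, in 6 daily sessions of 10 infusions at 30 µg/kg each. The brains were collected on day 15. Rats could press a lever for infusions, and passive infusions made up the rest of the 10. The study reports more self-administration in cross A than in cross B. A difference between the crosses therefore cannot be told apart from that behaviour. No rat without intravenous nicotine was among the 8, so the comparison describes nicotine-exposed animals only. The tissue was dissected by hand, and the labels nac and nash were read as core and shell after the study's methods.

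The accumbens is the ventral part of the striatum, and most of its neurons are GABAergic medium spiny neurons that carry either D1 or D2 dopamine receptors. Its core borders on the dorsal striatum and is studied for cue-driven and goal-directed actions, while the shell lies medially and ventrally around it and is studied for reward, feeding and responses to new drug exposure. Both receive dopamine from the ventral tegmental area (VTA), whose release is raised by nicotine. The 2 subregions hold the same main cell classes. The tissue compared here was hand-dissected and read in bulk, so a difference in level cannot be told apart from one in the share of cells. Markers of neighbouring tissue were not checked.

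Of 17323 genes in the deposited table, 15843 exceeded a normalized count of 10 in 3 or more of the 16 libraries and were tested. The table identifies genes by Ensembl ID alone, and 0 of its IDs were matched in the gene table used here. Symbols, marker genes and pathways were not used, and the label of each subregion was not checked against its known markers. Only 4 genes are given by ID, and the others are described by size, level and consistency over rats. Totals ranged from 17563458 to 20480697 estimated counts in core and from 19146904 to 21680765 in shell. The shell library held the larger total in 6 of 8 rats (two-sided exact permutation test over 256 sign flips, p = 0.0938) and more genes with a count in 8 of 8 rats (mean 16890 ± 32.6 in shell against 16774 ± 79.6 in core, SD, n = 8 rats; two-sided exact permutation test, p = 0.00781, the smallest that this design allows).

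A principal component analysis of the 500 genes of highest variance separated core from shell libraries completely on its first axis, which held 18.1% of the variance. Core libraries lay between 6.83 and 20.9 and shell libraries between -20.0 and -6.19. Rat 13, a saline-injected rat of cross B, had the core library and the shell library nearest to each other on this axis, at 6.83 and -6.19. The same rat showed the smallest contrast when each rat was read on genes that had been called in the other 7. For that reading, the level of every gene in the left-out rat was placed on a scale on which 0 was the mean of the other shell libraries and 1 the mean of the other core libraries. The core libraries of the other rats had median positions between 0.799 (rat 15) and 1.23 (rat 1), and their shell libraries lay between -0.162 (rat 11) and 0.233 (rat 1). In rat 13 the core library lay at 0.667 and the shell library at 0.240, over 801 genes that differed more than 1.5-fold in the others. Its core library was lower than any other core library, and its shell library was close to that of rat 1, the next highest. Among its core-high genes the core library lay at 0.864, and among its shell-high genes at 0.510. What set rat 13 apart was not tested, and the main counts are given with and without it.

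**Figure D1:**
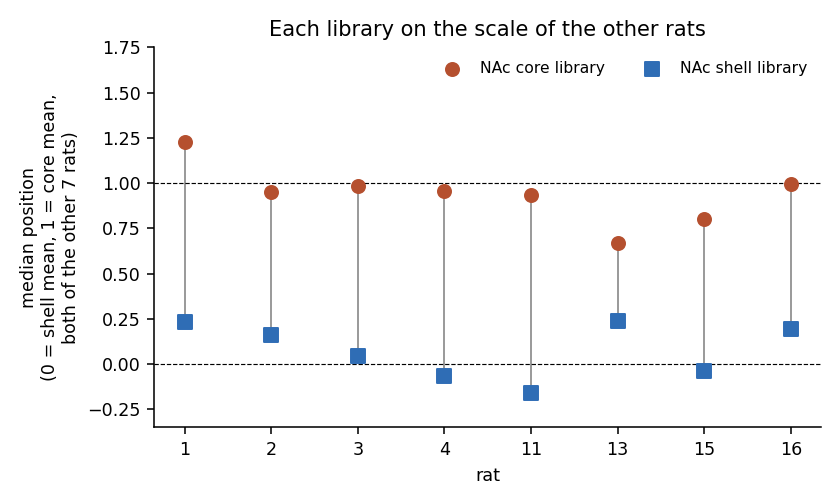
Median position of each library (y axis, no unit) by rat (x axis), on a scale from the mean of the other 7 shell libraries (0) to the mean of the other 7 core libraries (1), over genes called without that rat that differed more than 1.5-fold; circles are core libraries, squares are shell libraries and grey lines join the libraries of 1 rat. The 8 core libraries lie above all 8 shell libraries, and the gap is smallest in rat 13 (0.667 and 0.240).

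Core and shell differed in a large minority of genes, mostly by small amounts. With edgeR's quasi-likelihood test, rat as a block and a Benjamini-Hochberg adjusted p under 0.05, 2721 of 15843 genes passed (17.2%). Of these, 1436 were higher in core (9.06% of genes tested) and 1285 were higher in shell (8.11%). The genes higher in core had a median difference of 0.30 on the log2 scale, or 1.23-fold, and those higher in shell a median of -0.39, or 1.31-fold. The middle of the distribution ran from 0.20 to 0.48 for core and from 0.24 to 0.67 in absolute value for shell (25th to 75th percentile). Over all genes tested the median log2 difference was -0.00466 and the median absolute difference was 0.12. Without rat 13, 3149 genes passed (1620 higher in core and 1529 in shell), and without any other single rat the count lay between 2157 and 2490.

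Large differences were few. Those over 1.5-fold and over 2-fold were more often toward the shell, those over 4-fold were equal in number and those over 8-fold were more often toward the core. Differences over 1.5-fold were found for 267 of the genes higher in core (18.6%) and 392 of those higher in shell (30.5%). Over 2-fold there were 120 and 157 genes, or 8.36% and 12.2% of each list. Over 4-fold the lists held 29 genes each, and over 8-fold 13 were higher in core and 4 in shell. Without rat 13, 135 core-high and 230 shell-high genes exceeded 2-fold. The direction of the split in these counts was not tested.

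No gene was above a floor of detection in every library of one subregion and at the floor throughout the other. A gene was counted as at the floor when no library of a subregion held more than 3 counts. This was so for 2 genes in the shell and for 0 in the core. Both were called higher in core, with at most 67 counts in a core library, but neither had more than 3 counts in all 8 core libraries.

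The direction of the called differences varied with the abundance of the gene, which is described here without a test. Genes at a mean of 100 CPM or more (counts scaled to a common, normalized library total) were called in 31.7% of 2506 cases, of which 588 were higher in core and 207 in shell. Between 10 and 100 CPM 18.04% of 7599 genes were called, with 646 and 725 in the respective directions. Between 1 and 10 CPM 11.6% of 4172 genes were called, and here 170 were higher in core and 312 in shell. Below 1 CPM 4.66% of 1566 were called, 32 and 41. The share of core-high genes among the calls was thus 74.0% at 100 CPM or more and 36.4% below 10 CPM. It was 74.2% and 36.5% with median-ratio (RLE) scaling, 73.8% and 35.2% with DESeq2, and 76.3% and 29.7% without rat 13. Over all genes tested, called or not, the median log2 difference was 0.04 at 100 CPM or more and -0.06 below 10 CPM, and 0.05 and -0.08 without rat 13. Shell libraries also held more genes with a count in all 8 rats and the larger total in 6, and the part of this in the low-level calls was not tested. The core-high genes took 25.0% of all core counts and 21.2% of shell counts, whereas the shell-high genes took 6.76% of core counts and 8.71% of shell counts.

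The size of the called differences ran the other way. Called genes had a median absolute log2 difference of 0.22 at 100 CPM or more, 0.31 between 10 and 100 CPM, 0.75 between 1 and 10 CPM and 1.68 below 1 CPM. The spread between rats rose in the same order, with a median SD of the per-rat log2 difference over all tested genes of 0.12, 0.18, 0.46 and 0.96. With a wider spread a gene passes only with a larger difference, so the sizes of called genes are partly set by the test. Below 1 CPM, 32 of the 32 core-high and 40 of the 41 shell-high genes exceeded 2-fold. At 100 CPM or more, 5 genes differed over 2-fold toward the core and 1 toward the shell.

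**Figure D2:**
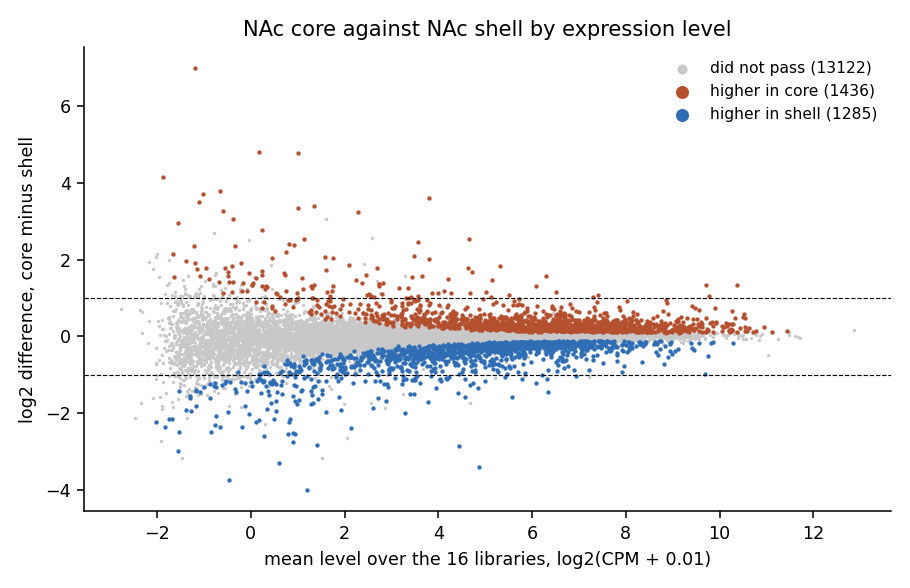
Log2 difference of core minus shell (y axis) against mean level over the 16 libraries, as log2 of CPM with a small offset (x axis); each point is 1 of 15843 genes, with the 1436 called higher in core and the 1285 called higher in shell in colour, the rest in grey, and dashed lines at 2-fold. Called genes at the right are mostly above 0 and small in size, and those below 10 CPM are more often below 0.

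The number of rats on the called side is given here as a description, since the genes were called by a paired test on the same 8 rats and agreement among them is largely set by that choice. For each gene the per-rat difference was the log2 CPM of core minus that of shell (prior count of 2). Of the 2721 called genes, 1679 had all 8 rats on the called side (61.7%), 884 had 7, 153 had 6 and 5 had 5. All 8 rats lay on the called side for 65.0% of the core-high genes and 58.1% of the shell-high genes. Among all genes tested, core was above shell in all 8 rats for 1033 genes (6.52%) and below it in all 8 for 850 (5.37%). The median SD of the per-rat difference was 0.16 for core-high and 0.23 for shell-high genes, both on the log2 scale. Without rat 13 the share of called genes with every remaining rat on the called side was 72.2%, over 7 rats. Agreement of 7 rats is easier to reach than that of 8, and this share was not computed without any other rat.

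**Figure D3:**
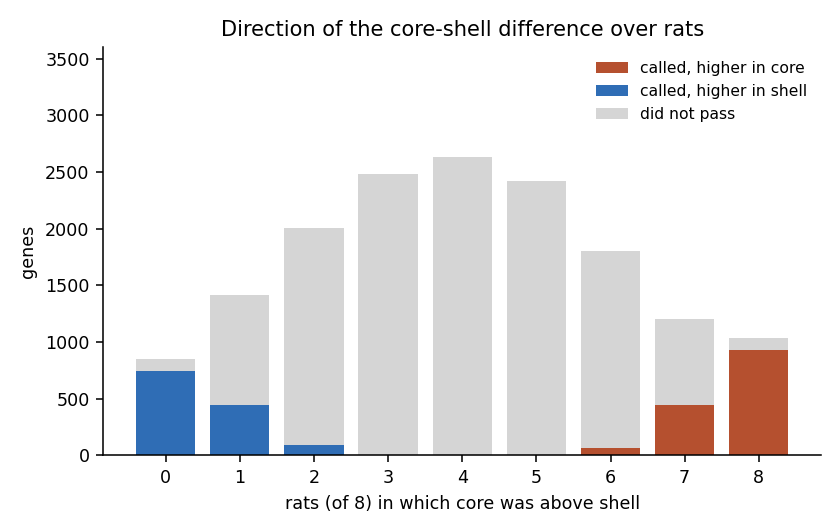
Number of genes (y axis) by the number of rats, of 8, in which core was above shell (x axis); bars are stacked by call, with genes higher in core, genes higher in shell and genes that did not pass. The called genes sit at the ends, with 933 core-high genes at 8 rats and 746 shell-high genes at 0 rats.

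A stricter reading asked whether the 8 core values and the 8 shell values overlapped at all, across rats as well as within them. The ranges lay apart for 536 of the 15843 genes (3.38%), 534 of which were called. Calls and ranges were read on the same libraries, so this overlap is largely set in advance. The 534 were 19.6% of the called genes, with 22.0% of the core-high and 17.0% of the shell-high genes. The share rose with the size of the difference. Among core-high genes it was 10.3% and 30.9% in the lower and upper class under 1.5-fold, 37.4% from 1.5 to 2-fold, 50.5% from 2 to 4-fold and 51.7% above that. Among shell-high genes it was 8.40%, 16.5%, 23.8%, 34.4% and 44.8% in the same classes. From the smallest to the largest of these classes, all 8 rats lay on the called side for 56.1%, 70.9%, 78.2%, 86.8% and 89.7% of the core-high genes and for 56.3%, 58.3%, 54.5%, 67.2% and 75.9% of the shell-high genes. Without rat 13, the ranges of the other 7 and 7 libraries lay apart for 775 genes, of which 767 were called. Ranges of fewer libraries lie apart more easily, and this count was not made without any other rat.

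The largest differences were mostly not those with the smallest p. The 100 genes of smallest p had a median absolute log2 difference of 0.86, and 60 of them differed by less than 2-fold. Their median level was 59.0 CPM, all 100 had every rat on one side, and in 87 the ranges lay apart. This agreement is largely set by ranking on a paired test of the same rats. The list comprised 57 core-high and 43 shell-high genes, with an edgeR adjusted p of at most 1.03e-05. The 100 genes of largest absolute difference had a median of 2.26 on the log2 scale and a median level of 1.09 CPM. Of these 77 passed the test, 62 had all rats on one side and in 36 the ranges lay apart. The lists shared 11 genes.

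The gene of smallest p among those higher in core was ENSRNOG00000005600. In core its levels were 77.5, 47.6, 36.5, 42.4, 26.5, 34.9, 23.998 and 56.1 CPM in rats 1, 2, 3, 4, 11, 13, 15 and 16. In shell they were 8.30, 11.0, 5.56, 6.82, 5.58, 6.43, 5.58 and 7.99 CPM in the same order. The lowest core library was thus above the highest shell library, while levels within the core varied more than 3-fold between rats 15 and 1. The mean was 43.2 ± 17.4 CPM in core and 7.16 ± 1.89 CPM in shell (SD, n = 8 rats), from 474 to 1302 counts in core and 111 to 229 in shell. The log2 difference was 2.54 ± 0.12 (SE), or 5.83-fold (edgeR adjusted p = 5.11e-08), and within rats it ranged from 2.09 to 3.21. Rat 13, with 2.42, lay within the range of the others. In the VTA libraries, scaled together with the NAc libraries, this gene had a median of 30.0 CPM (18.6 to 37.2), so that its level in the shell was the lowest of the 3 regions.

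ENSRNOG00000054548 was also higher in core. Its core levels in rats 1, 2, 3, 4, 11, 13, 15 and 16 were 13.2, 15.5, 23.4, 25.8, 24.8, 21.6, 17.9 and 17.8 CPM. Its shell levels in that order were 3.06, 3.31, 4.75, 3.44, 2.58, 4.54, 3.01 and 4.33 CPM. The ranges did not overlap, and the highest shell library stood well under the lowest core library. Core held 20.0 ± 4.58 CPM and shell 3.63 ± 0.804 CPM (SD, n = 8 rats), from 221 to 515 and from 55 to 105 counts. The log2 difference was 2.45 ± 0.13 (SE), or 5.46-fold (edgeR adjusted p = 1.39e-07), with 2.02 to 3.22 within rats. Its largest difference was in rat 11, which held the lowest shell level. Its VTA median of 6.11 CPM (4.68 to 7.54) lay between the levels of shell and core.

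ENSRNOG00000017893 had the smallest p of all genes and was higher in shell. Its shell levels in rats 1, 2, 3, 4, 11, 13, 15 and 16 were 82.9, 97.9, 110, 133, 154, 136, 144 and 91.6 CPM. Its core levels in the same rats were 29.0, 42.4, 37.0, 50.2, 62.2, 48.2, 43.3 and 37.5 CPM. Rat 11 held the highest level in both subregions and rat 1 the lowest in both, and the ranges stayed apart. The means were 119 ± 26.5 CPM in shell and 43.7 ± 10.1 CPM in core (SD, n = 8 rats), from 1800 to 3290 and 487 to 1231 counts. The log2 difference of core minus shell was -1.44 ± 0.06 (SE), or 2.72-fold (edgeR adjusted p = 1.07e-08), and it ran from -1.73 to -1.21 within rats. The VTA levels overlapped those of the shell, with a median of 154 CPM (108 to 205).

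ENSRNOG00000042731, higher in shell as well, was the most even of the 4 genes. Its shell levels in rats 1, 2, 3, 4, 11, 13, 15 and 16 were 104, 95.8, 106, 114, 115, 117, 107 and 108 CPM. Its core levels in those rats were 45.5, 44.2, 52.0, 50.7, 61.0, 49.4, 48.4 and 52.5 CPM. The shell held 108 ± 6.93 CPM and the core 50.5 ± 5.17 CPM (SD, n = 8 rats), from 1996 to 2442 and 765 to 1206 counts. The log2 difference was -1.11 ± 0.04 (SE), or 2.15-fold (edgeR adjusted p = 1.07e-08), with -1.25 to -0.91 within rats. Rat 13 showed the largest difference for this gene, at -1.25, although its contrast was the smallest over the called genes as a whole. The VTA median was 144 CPM (119 to 159). By absolute difference these genes ranked 34th, 40th, 180th and 357th of all genes tested, in the order given here. The SD of the per-rat log2 difference was 0.39 for ENSRNOG00000005600, 0.42 for ENSRNOG00000054548, 0.17 for ENSRNOG00000017893 and 0.11 for ENSRNOG00000042731, against a median of 0.23 over all genes tested. Among tested genes between 10 and 100 CPM, where all 4 lay by mean level, the median was 0.18. The core-high pair thus had large differences with a spread above both medians. The shell-high pair had smaller differences. Its spread was close to the median of that level for ENSRNOG00000017893 and below it for ENSRNOG00000042731.

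**Figure D4:**
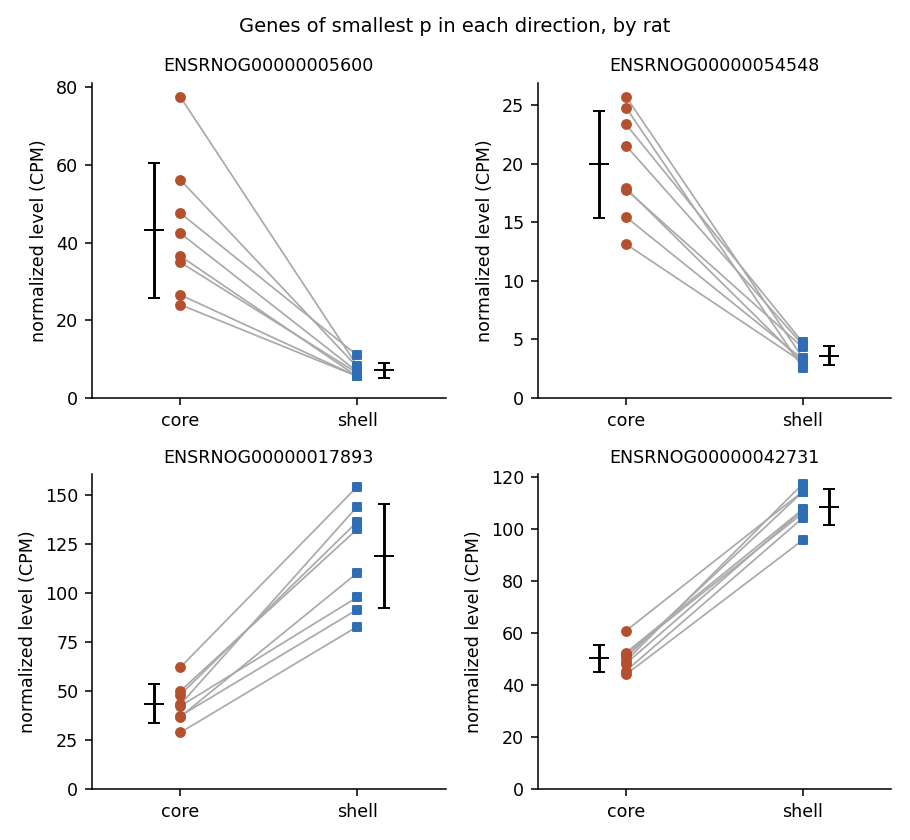
Normalized level in CPM (y axes, from 0) of 4 genes, the 2 of smallest p among those higher in core (upper panels) and among those higher in shell (lower panels), in core and shell (x axes); points are rats, grey lines join the libraries of 1 rat, and black bars are the mean ± SD of 8 rats. Genes were eligible only with all 8 rats on one side, so the shared direction of the lines was set by the choice; core and shell values do not overlap.

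The contrast of each rat was read on genes chosen without it. Over the genes called in the other 7 rats, the left-out rat lay on the called side for 93.6% of genes in rat 1, 89.8% in rat 2, 93.4% in rat 3, 91.3% in rat 4, 90.0% in rat 11, 84.7% in rat 15 and 92.1% in rat 16. In rat 13 this share was 68.6%. The median log2 difference over the core-high genes was 0.25 to 0.35 in the other rats and 0.13 in rat 13, and over the shell-high genes -0.43 to -0.28 and -0.15. The lists differed, with 3149 genes for rat 13 and 2157 to 2490 for the others. On the common list of genes called in all 8 rats, which each rat helped to choose, the medians were 0.26 to 0.35 in the other rats and 0.21 in rat 13 for core-high genes, and -0.46 to -0.33 and -0.26 for shell-high genes. The slope of the left-out rat's differences on the mean of the other rats lay between 0.761 and 0.979 for the other 7 and was 0.436 for rat 13. As a description across the 15843 genes (genes are no replicates), the per-rat differences of 2 rats correlated with a Pearson's r of 0.14 to 0.30 in the 21 pairs without rat 13 and 0.03 to 0.15 in the 7 pairs with it. Such a pair shares no library, but all points share the gene set and its levels.

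To ask whether the subregion difference held in rats that had no part in choosing the genes, each cross and each injection group was fitted alone. In the 4 rats of cross A, 1232 genes passed (7.78%), and 1220 of them had the same direction in cross B. Their median absolute log2 difference was 0.50 in cross A and, taken in the same direction, 0.38 in cross B, where 496 of them also passed (40.3%). In cross B alone 612 genes passed (3.86%), and 610 had the same direction in cross A. The genes that passed in both crosses were the same 496, here 81.0% of the list. In the nicotine-injected rats 1840 genes passed (11.6%), of which 1781 went the same way in the saline-injected rats and 561 passed there (30.5%). In the saline-injected rats 673 genes passed (4.25%), of which 666 went the same way in the nicotine-injected rats. Those that passed in both injection groups were the same 561, here 83.4% of the list. No gene passed in opposite directions in either pair of groups. Cross B and the saline-injected rats both included rat 13. With that rat left out, cross B gave 1318 genes from 3 rats and the saline-injected rats 739, and the shares that kept direction or passed in the other group were not computed without it.

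**Figure D5:**
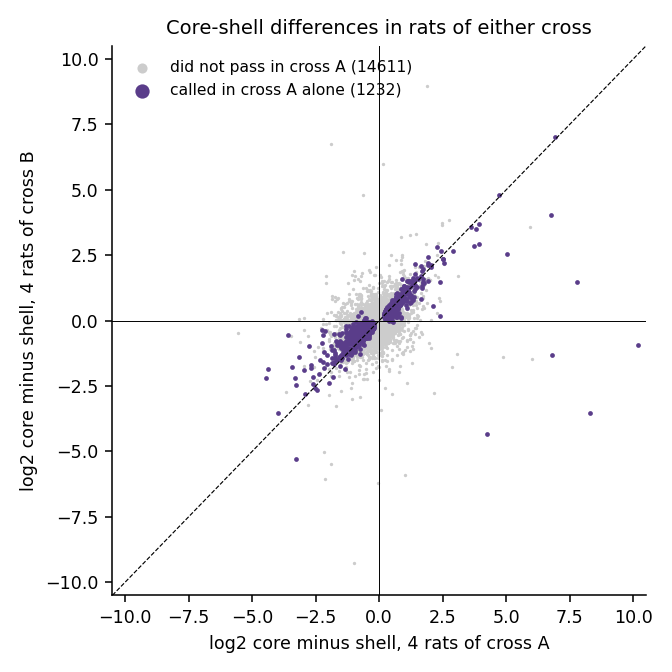
Log2 difference of core minus shell in the 4 rats of cross A (x axis) against that in the 4 rats of cross B (y axis), with each point 1 of 15843 genes; the 1232 genes called in cross A alone are in colour and the dashed line marks equal differences. Of the coloured genes 1220 have the same sign in cross B, and a few with very large differences in cross A lie far from the line.

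The difference between core and shell was then tested for dependence on cross and on injection, as an interaction with rat as a block. For cross, 0 genes had an adjusted p under 0.05 in edgeR's test, 341 had an unadjusted p under 0.05 (2.15%), and DESeq2 called 3. For injection, edgeR called 0 genes, with 693 at an unadjusted p under 0.05 (4.37%), and DESeq2 called 0. About 792 genes would be expected by chance at that unadjusted threshold, and neither count reached this number in the fit of all rats. Over the genes called between core and shell, 57 had an unadjusted p under 0.05 for the interaction with cross (2.09%) and 136 for that with injection (5.00%). The median absolute interaction over these genes was 0.08 for cross and 0.10 for injection on the log2 scale. For ENSRNOG00000005600 the interaction with cross was -0.22 ± 0.23 (SE), and for ENSRNOG00000017893 the interaction with cross was 0.000542 ± 0.12 (SE). Neither p passed (adjusted p = 1 in edgeR). These values do not show that the crosses or the injection groups were alike. Leaving out single rats moved the unadjusted counts to as many as 523 for cross (without rat 13), and for injection to as few as 420 (without rat 13) and as many as 1167 (without rat 16, with 2 genes past the adjusted threshold).

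Preparation batch was the same for the core and the shell library of each rat. Nicotine-injected rats of cross A were prepared in batch E, those of cross B in batch F, and the saline-injected rats in batch G. Over the genes called in all rats, which these rats helped to choose, the median difference for core-high genes was 0.30 in batch E (2 rats), 0.32 in batch F (2 rats) and 0.28 in batch G (4 rats). For shell-high genes it was -0.42, -0.37 and -0.35. Injection and batch cannot be told apart.

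The genes called over 2-fold in all 8 rats' data, rat 13 included, were set beside their VTA levels, taken as the median of the VTA libraries on a common scale. The 120 core-high genes had a median level of 3.45 CPM in core, 1.17 CPM in shell and 1.24 CPM in VTA. VTA lay below both subregions for 64 of them, between them for 38 and above both for 18. The 157 shell-high genes had medians of 0.947 CPM in core, 2.93 CPM in shell and 2.16 CPM in VTA, and VTA lay below both for 51, between for 45 and above both for 61. Over all genes tested, VTA lay below both for 45.9%, between for 10.0% and above both for 44.0%. Lists chosen for a gap over 2-fold leave more room between core and shell, so these shares are not like for like. The values are levels, and no test was made of them. Leaving out the VTA library of rat 2, an alternative chosen with earlier results known, changed the counts of the core-high and shell-high lists by at most 3 genes, and over all genes tested gave 46.2% below both, 9.30% between and 44.5% above both. In bulk tissue, a lower level cannot be told apart from a smaller share of the cells that express the gene.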

How the data were processed

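Total RNA of hand-dissected NAc core and NAc shell was sequenced (paired ends). According to the study's methods and the labels, the authors trimmed reads with fastp 0.20.0, quantified them with Salmon 0.12.0 against rat Rnor version 6 and summed transcripts to genes with tximport. The deposited values were the resulting estimated counts, rounded to whole numbers and not normalized. Salmon divides ambiguous reads by estimation, so near-identical genes can exchange counts. Each library's column carried its sample title, with 0 unmatched.

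Tested were 15843 of 17323 genes, those whose normalized count exceeded 10 in 3 or more of 16 libraries, and 1480 were not. The test was edgeR 4.0.16 (quasi-likelihood, TMM, R 4.3.3) with region and rat as terms, two-sided, with Benjamini-Hochberg adjustment over all genes tested. CPM were computed from TMM-scaled totals, and per-rat differences on the log2 CPM scale (prior count 2). The SE was the absolute log2 difference divided by the square root of F. Rats are biological replicates. Libraries were paired by the number in the sample title, read as 1 rat that gave both. The deviations of the paired libraries from their region means correlated at -0.09 to 0.19. These values do not check the pairing, since mismatched pairs were not computed. Over 56 within-region pairs chi-square statistics of the counts exceeded their degrees of freedom 5.16 to 21.0 times, so none was a copy. Alternatives were DESeq2 1.42.0, limma 3.58.1 (voom), RLE scaling, other filters, no rat block, all 24 libraries, subsets of rats and each rat left out. Scripts were tested on simulated data. The comparison, lists and rules were chosen with earlier results of these data known. Genes given by ID were the 2 of smallest p per direction with all 8 rats on one side. The planned gene lists and marker checks need symbols and were not run. No genome of the build was used, and no position or sequence is given. The floor of 3 counts covers counting error only.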

Additional observations from a re-analysis of the deposited data

Results flagged for a closer look

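Values of single rats were compared within groups of 8 by Dixon's ratio, which sets a library or rat apart when its gap to the nearest other is a large part of the whole range (95% critical value). Of 24 such comparisons 3 had a value apart, against 1.2 expected by chance, and all 3 were of rat 13 and rest on the same per-rat differences. Over genes called without rat 13, its median log2 difference for core-high genes was 0.134, its share of genes on the called side was 68.6% and its slope on the mean of the other rats was 0.436. The totals of its libraries and their positions between shell and core were not set apart by this ratio. What made rat 13 differ was not tested.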

How the results depend on the processing

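The 2721 genes called between core and shell with rat as a block became 2459 with no replicate block, of which 2307 were shared, and 2538 to 2917 with another tool, scaling or filter. Every called gene tested in these fits and in those without 1 rat kept its direction. Without 1 rat the count was 2157 to 3149, and 1828 genes passed in each of those 8 fits. The fit over all 24 libraries gave 1353 genes (733 higher in core, 620 in shell), 1335 of them shared. Its spread is estimated from the VTA libraries as well, and the cause of the lower count was not tested. Subsets of 4 rats gave 1232 genes in cross A alone (678 and 554), 612 in cross B alone (345 and 267) and 673 in saline-injected rats alone (401 and 272). Nicotine-injected rats alone gave 838 higher in shell. In alternatives added after the data were seen, cross B without rat 13 gave 1318 (760 and 558), with 1 of the 2721 genes in the opposite direction, and the saline-injected rats without rat 13 gave 739 (441 and 298). The interaction with cross gave 3 genes with DESeq2 and 0 otherwise, and that with injection gave 0 to 2 without 1 rat. The 4 genes given by ID passed in every alternative that tested them, with log2 differences of 2.38 to 2.72, 2.13 to 2.61, -1.49 to -1.36 and -1.16 to -1.03. Within batches E and F, with 2 rats each, values were computed without a test. The lists that need symbols were not run. Below 1 CPM 4.66% of genes were called and the spread between rats was widest; the part of depth in this was not tested.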
